A study of Mus musculus with 98 samples.

Results

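Igf2bp2, Gpc4, Nckap5 and Lrp4 are 4 mouse genes whose daily rhythm differed between mice carrying human hepatocytes and mice carrying murine hepatocytes. They were taken by symbol from both deposited count tables, which together list 20757 distinct mouse genes. They were chosen by the measured difference in rhythm between the arms, Igf2bp2 and Gpc4 in skeletal muscle and Nckap5 and Lrp4 in liver. Differences between the arms in the tissue that chose a gene are therefore described here without support from a test, and the p-values behind the choice are named where a setting ended them. The question put to the data was whether the other tissues show a different rhythm of these genes as well. All 4 genes passed the filter on low counts in liver, muscle and the arcuate nucleus of the hypothalamus (ARC). In the suprachiasmatic nucleus (SCN), the seat of the central clock, 3 passed and Igf2bp2 did not.

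All animals were male FRGN mice, 10 weeks old, which carry Fah-/-, Rag2-/- and Il2rg-/- and were crossed to the non-obese diabetic strain. They lack a tyrosine-breaking enzyme and lymphocytes, so that transplanted liver cells survive, and both arms were cycled on the protective drug nitisinone and on SMX/TMP antibiotics. In the Hu arm the liver was repopulated with human hepatocytes, and the labels state that mice with over 70% human hepatocytes were used. In the Mu arm, the control, murine hepatocytes were transplanted. Tissues were collected at zeitgeber time (ZT) 2, 6, 10, 14, 18 and 22, where time is counted in hours from the onset of light, and RNA was sequenced from stranded libraries. Liver and muscle had 15 Hu and 12 Mu libraries each, and ARC and SCN had 10 Hu and 12 Mu libraries each, with 1 to 3 per arm and time point. Where nothing says that replicates came from separate animals, p-values measure only the spread between these samples. Muscle, ARC and SCN of the Hu arm are mouse tissues, and in Hu livers only mouse rows are described, which are taken to come from host cells. Whether human reads were also counted in mouse rows was not examined.

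The 4 genes have unrelated products. Igf2bp2 encodes a protein that binds messenger RNAs, among them that of insulin-like growth factor Igf2, and affects their translation. Gpc4 encodes glypican 4, a heparan sulfate proteoglycan anchored to the cell surface, which takes part in growth factor signalling. Nckap5 encodes a protein named for its association with the NCK adaptors, which link receptors to the actin skeleton. Lrp4 encodes a receptor of the LDL receptor family, which binds agrin and activates the kinase MuSK at the nerve-muscle junction and also modulates Wnt signalling. In the circadian system, the clock proteins of each cell drive daily transcription, and feeding time and hormones set the phase of clocks outside the brain.

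In GRCm38, Igf2bp2 (ENSMUSG00000033581) lies on the minus strand at chr16:22059009-22163299. Gpc4 (ENSMUSG00000031119) lies on the minus strand at chrX:52053021-52165252. Nckap5 (ENSMUSG00000049690) lies on the minus strand at chr1:125913620-126830799, and 3 unclassified genes, Gm37161, Gm37936 and Gm38177, overlap its span on the same strand. Whether they overlap its exons, and so affect its counts, was not examined. Lrp4 (ENSMUSG00000027253) lies on the plus strand at chr2:91457511-91513779. The annotation is GENCODE M21. Rhythm in these data is read from transcript counts, and the promoter is only 1 of the places at which such a rhythm could be set. The windows from 250 bases before to 50 bases after the start are shown for Igf2bp2 (chr16:22163250-22163549), Gpc4 (chrX:52164874-52165173) and the upstream start of Nckap5 (chr1:126830583-126830882), 5′ to 3′ on the minus strand, from RefSeq on GRCm38.p6. Capitals mark AGGTCA, the half-site bound by REV-ERB and ROR clock receptors.
Igf2bp2: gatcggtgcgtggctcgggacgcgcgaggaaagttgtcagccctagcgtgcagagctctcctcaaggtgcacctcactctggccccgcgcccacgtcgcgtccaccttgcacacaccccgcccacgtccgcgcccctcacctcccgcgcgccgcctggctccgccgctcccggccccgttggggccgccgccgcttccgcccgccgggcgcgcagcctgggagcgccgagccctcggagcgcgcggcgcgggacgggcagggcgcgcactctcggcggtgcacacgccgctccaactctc
Gpc4: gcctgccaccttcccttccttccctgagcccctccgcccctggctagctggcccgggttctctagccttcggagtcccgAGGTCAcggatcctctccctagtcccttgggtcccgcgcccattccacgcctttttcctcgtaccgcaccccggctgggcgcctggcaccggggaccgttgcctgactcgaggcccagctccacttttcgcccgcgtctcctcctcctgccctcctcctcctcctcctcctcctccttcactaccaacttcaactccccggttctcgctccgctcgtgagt
Nckap5: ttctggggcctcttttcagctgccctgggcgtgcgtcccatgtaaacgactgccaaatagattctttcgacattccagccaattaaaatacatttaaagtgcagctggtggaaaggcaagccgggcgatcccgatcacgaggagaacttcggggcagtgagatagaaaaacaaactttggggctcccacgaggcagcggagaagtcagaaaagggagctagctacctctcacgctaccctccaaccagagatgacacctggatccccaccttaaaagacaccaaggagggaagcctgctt
The RefSeq table matched 3 of the 4 genes, with a further start of Nckap5 at chr1:126492878-126493177. The letters CACGTG (the E-box of the clock activators), TTATGTAA and TTACGTAA (the D-box of Dbp and its relatives) and AGGTCA were searched on both strands in these 4 windows. AGGTCA occurred in 1 window, that of Gpc4, 171 bases before the RefSeq start, and neither the E-box nor the D-box occurred in any. Over all 32851 windows of the table, 16.26% held AGGTCA, 7.15% held the E-box and 1.06% held a D-box. The RefSeq starts of Gpc4 and Nckap5 lie downstream of the GENCODE 5′ ends given above, and the Gpc4 window, AGGTCA included, lies wholly inside the GENCODE gene. A match describes the letters of a window and no binding. The Igf2bp2 window was 76.7% G and C, the Gpc4 window 66.7% and the Nckap5 window 52.3%, against a median of 52.7% over all windows, and they held 47, 22 and 12 CpG against a median of 7.

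Libraries held 23.7 to 118.3 M counts (M for mega) outside the Hu livers. In Hu livers, mouse rows held 7.70 to 87.9 M counts, and 15.86% to 93.07% of all counts lay in human rows. Of these livers, 4 had under 25 M mouse counts (ZT 10 replicate 2, ZT 14 replicate 2, ZT 18 replicate 3 and ZT 22 replicate 2). Values below are CPM of mouse rows, a gene's counts per 1 M of a library's mouse counts, after scaling by TMM, a method that sets most genes to equal level between libraries. In liver the TMM factors ranged from 0.73 to 0.87 in Mu and from 1.03 to 1.81 in Hu, so that the scaling itself differs between the arms there. The 5 hepatocyte markers summed to 87508 to 119947 CPM in Mu livers and to 7349 to 80698 CPM in the mouse rows of Hu livers. Skeletal muscle markers summed to 82865 to 150782 CPM in muscle. The ARC markers summed to 109.3 to 244.4 CPM in ARC and to 19.5 to 86.5 CPM in SCN, while the SCN markers were no lower in ARC, at 108.5 to 447.4 CPM, than in SCN, at 33.7 to 399.5 CPM. The SCN label is therefore not borne out by its own markers.

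**Figure D1:**
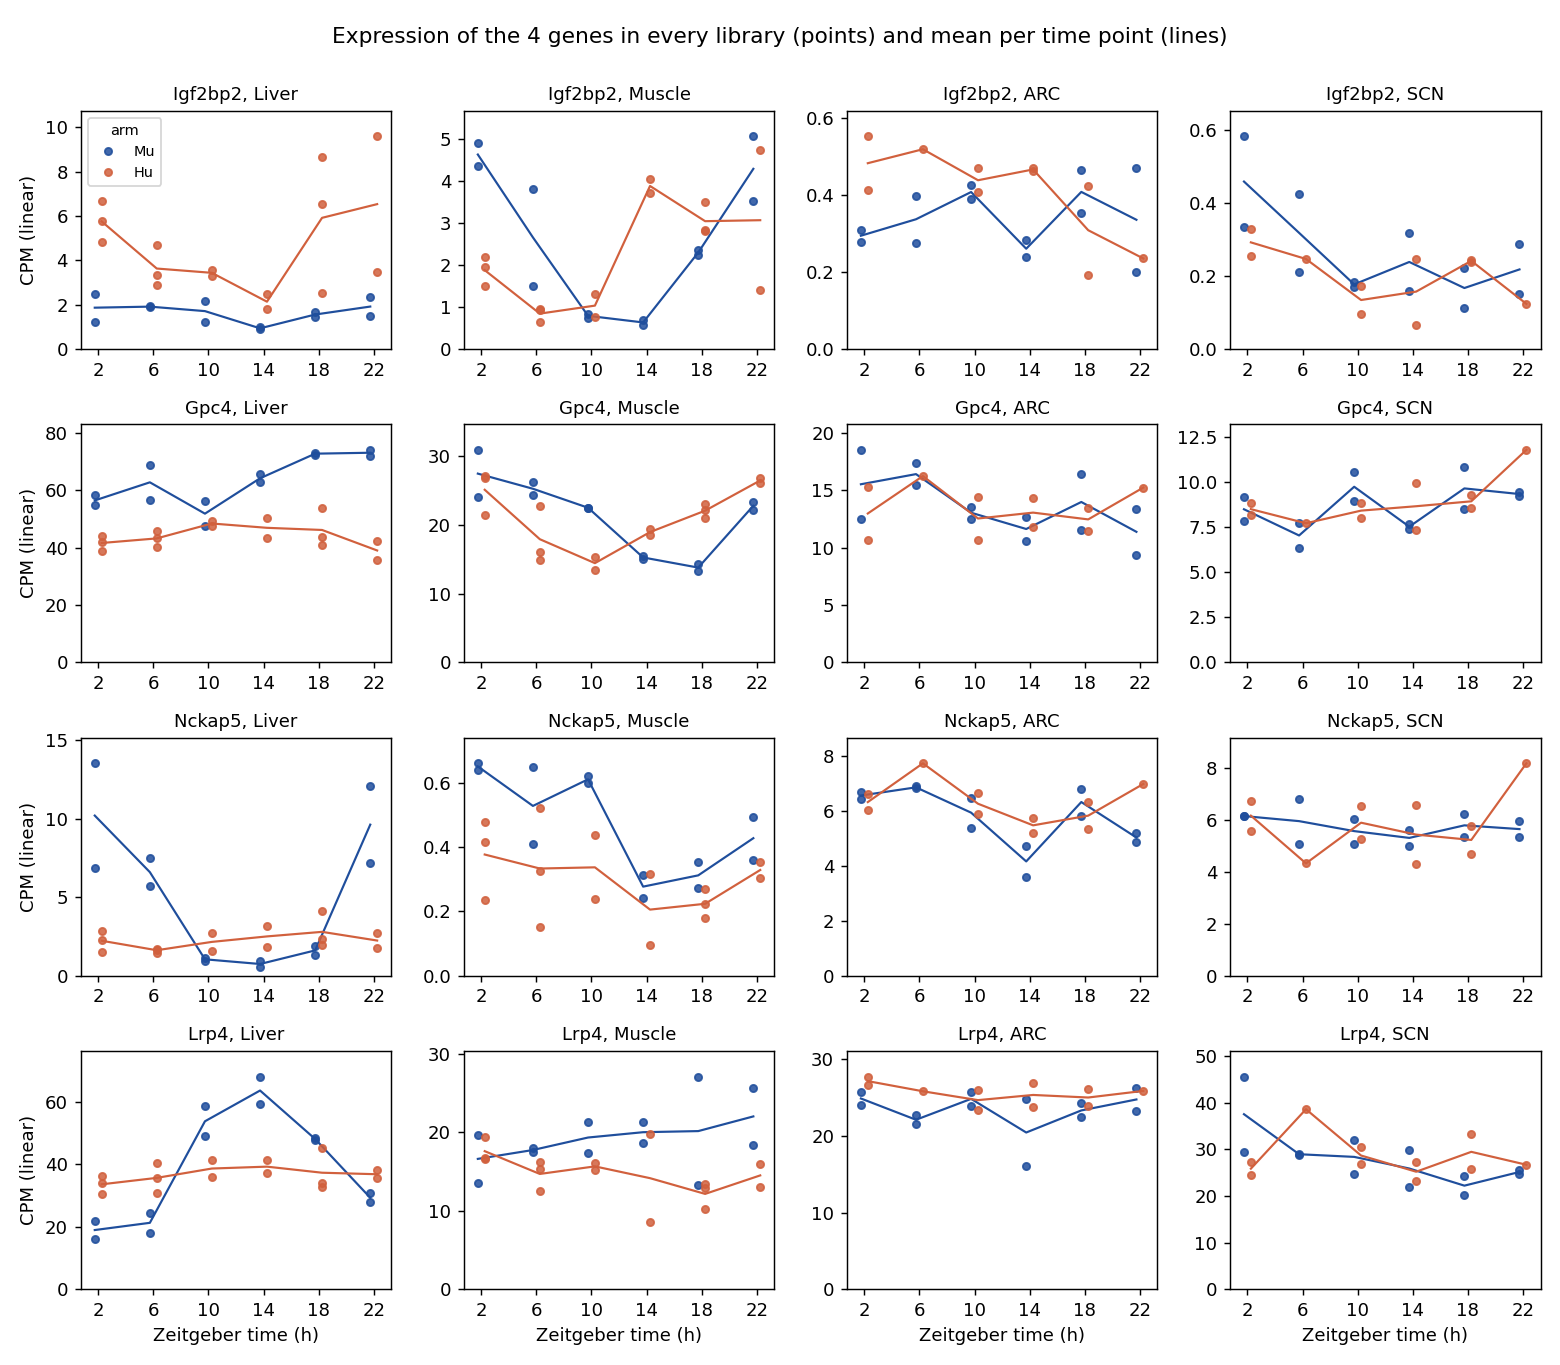
CPM on a linear axis against zeitgeber time in h for the 4 genes (rows) in the 4 tissues (columns); points are libraries, lines join the means of each arm at each time point. The Igf2bp2 and Gpc4 curves of the arms are displaced in muscle, the Nckap5 and Lrp4 curves of Hu livers are flat beside those of Mu livers, and no gene was called for a different rhythm in ARC or SCN.

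Igf2bp2 in muscle had a high-amplitude rhythm in both arms with different timing. In Mu muscle its 2 libraries read 4.34 and 4.90 CPM at ZT 2, 3.81 and 1.49 at ZT 6, 0.830 and 0.743 at ZT 10, 0.683 and 0.574 at ZT 14, 2.36 and 2.22 at ZT 18, and 5.05 and 3.51 at ZT 22. In Hu muscle they read 1.49, 1.94 and 2.18 CPM at ZT 2, 0.950, 0.919 and 0.648 at ZT 6, 1.31 and 0.748 at ZT 10, 4.05 and 3.70 at ZT 14, 2.79, 2.82 and 3.49 at ZT 18, and 1.40 and 4.72 at ZT 22. The lowest Mu time point, ZT 14, had the highest mean in Hu, and the groups did not overlap at ZT 2, 6, 14 and 18. At Hu ZT 22 the 2 libraries differed by more than those of any other group of this gene in muscle. The fitted 24 h curve peaked at ZT 0.33 ± 0.72 in Mu and ZT 18.6 ± 0.98 in Hu (jackknife standard error over libraries), a difference, Hu minus Mu, of -5.78 ± 1.22 h that ranged from -6.28 to -5.14 h with each library left out. Its amplitude, the log2 distance from mean to peak, was 1.53 ± 0.13 in Mu and 1.03 ± 0.22 in Hu, or an 8.30-fold and a 4.17-fold difference between peak and trough. The time-averaged level was about equal, with a log2 difference, Hu minus Mu, of -0.0012 ± 0.24 (standard error).

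Gpc4 in muscle showed a displacement of like size with a smaller amplitude. In Mu muscle it read 30.9 and 24.01 CPM at ZT 2, 26.2 and 24.3 at ZT 6, 22.5 in both libraries at ZT 10, 15.04 and 15.5 at ZT 14, 13.3 and 14.2 at ZT 18, and 22.2 and 23.3 at ZT 22. In Hu muscle it read 21.4, 27.1 and 26.9 CPM at ZT 2, 14.9, 22.8 and 16.1 at ZT 6, 15.4 and 13.5 at ZT 10, 18.5 and 19.5 at ZT 14, 21.05, 23.005 and 22.2 at ZT 18, and 26.1 and 26.9 at ZT 22. Mu was the higher arm at ZT 6 and 10 and Hu at ZT 14, 18 and 22, without overlap at these time points on the TMM scale; without TMM the arms overlapped at ZT 22. The curve peaked at ZT 3.98 ± 0.56 in Mu and ZT 22.4 ± 0.69 in Hu, a difference of -5.59 ± 0.89 h, and of -6.00 to -5.28 h with each library left out. Amplitudes were 0.496 ± 0.075 and 0.412 ± 0.068 on the log2 scale, or 1.99-fold and 1.77-fold from trough to peak. The level difference was -0.013 ± 0.067.

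Both shifts can be set beside the clock genes of the same muscles. Over 18 clock genes and direct clock targets, the phase difference in muscle, Hu minus Mu, ran from -7.53 to -1.71 h, with a median of -3.60 h. Among all 14197 genes tested in muscle, 10 were called for a different rhythm (0.0704%, edgeR quasi-likelihood test with Benjamini-Hochberg adjusted p under 0.05), a share from which nothing is read for Igf2bp2 and Gpc4, since they were selected on this contrast. Next to them in the order of p were Nr1d2, a REV-ERB receptor, with a phase difference of -4.55 h, and Usp2, a deubiquitinase under clock control, with -4.52 h. With the summed levels of fat cell and slow fibre markers as covariates, the phase difference of Igf2bp2 was -4.50 h and that of Gpc4 -5.66 h, and the calls that selected both genes were lost (edgeR adjusted p = 0.0722 and 0.0537). They were also lost with time as a factor (0.0744 and 0.0955), and that of Gpc4 without TMM (0.0678). Leaving out Hu ZT 2 replicate 1, Hu ZT 6 replicate 3 or Mu ZT 14 replicate 2 ended both calls, Mu ZT 14 replicate 1 that of Igf2bp2, and Mu ZT 6 replicate 1, ZT 10 replicate 1 or either ZT 18 replicate that of Gpc4, with edgeR adjusted p of up to 0.0631 and 0.0769. The genes most like Igf2bp2 in log2 CPM over the 27 muscle libraries were Fam20c (Pearson r = 0.86), Tnfrsf12a (0.85) and Rras2 (0.85). Those most like Gpc4 were Sh3bp5 (0.85), Spats2 (0.84) and Leo1 (0.80). Between the 2 genes themselves r was 0.48, and their fitted peaks lay several hours apart in each arm.

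**Figure D2:**
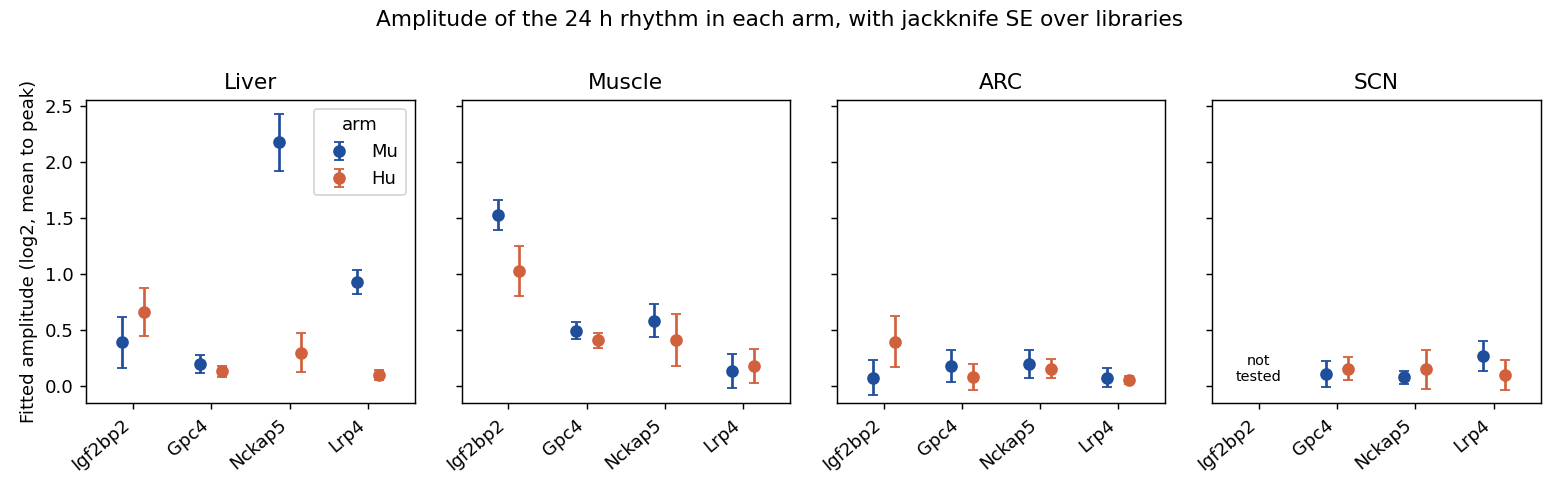
Fitted amplitude on the log2 scale, from mean to peak, of each gene in each tissue, with bars of 1 jackknife standard error over libraries. Mu values in liver reach 2.17 for Nckap5 and 0.929 for Lrp4, while the Hu values there are 0.302 and 0.10; in muscle both arms of Igf2bp2 lie above 1.

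Nckap5 in liver was rhythmic in Mu and nearly flat in the mouse rows of Hu. Mu livers read 6.88 and 13.5 CPM at ZT 2, 7.51 and 5.70 at ZT 6, 0.961 and 1.14 at ZT 10, 0.538 and 0.965 at ZT 14, 1.93 and 1.31 at ZT 18, and 12.1 and 7.18 at ZT 22. Hu livers read 1.53, 2.86 and 2.31 CPM at ZT 2, 1.73, 1.48 and 1.67 at ZT 6, 1.57 and 2.75 at ZT 10, 1.82 and 3.20 at ZT 14, 1.96, 2.34 and 4.10 at ZT 18, and 2.69 and 1.80 at ZT 22. The arms did not overlap at any of the 6 time points, with or without TMM. Mu was the higher arm at ZT 2, 6 and 22, and the lower one at ZT 10, 14 and 18. The highest Hu value, at ZT 18, came from the liver with 7.70 M mouse counts and rests on 57 reads. The amplitude was 2.17 ± 0.25 in Mu and 0.302 ± 0.171 in Hu (jackknife standard error), a 20.3-fold and a 1.52-fold difference from trough to peak. The Mu curve peaked at ZT 1.41 ± 0.38, and the Hu phase, ZT 18.04 ± 2.23, is poorly set at that amplitude. Without the 4 livers of low mouse depth the amplitude difference was -1.79, and -1.87 with them.

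Lrp4 in liver had the opposite timing. Mu livers read 16.02 and 21.9 CPM at ZT 2, 24.6 and 18.03 at ZT 6, 49.0 and 58.7 at ZT 10, 59.3 and 68.1 at ZT 14, 47.9 and 48.4 at ZT 18, and 30.8 and 27.8 at ZT 22. Hu livers read 34.2, 30.5 and 36.2 CPM at ZT 2, 40.6, 31.0 and 35.6 at ZT 6, 35.9 and 41.5 at ZT 10, 41.3 and 37.3 at ZT 14, 32.7, 45.2 and 34.1 at ZT 18, and 38.2 and 35.6 at ZT 22. On the TMM scale the arms were apart at every time point, with Mu below Hu at ZT 2, 6 and 22 and above it at ZT 10, 14 and 18. Without TMM, Mu was also below Hu at ZT 10 (42.9 and 44.3 CPM against 48.7 and 55.4), and the arms overlapped at ZT 14 and 18. The amplitude was 0.929 ± 0.104 in Mu, peaking at ZT 14.3 ± 0.47, and 0.10 ± 0.047 in Hu, or 3.62-fold and 1.15-fold from trough to peak. No phase is given for Hu, where the phase difference changed sign between settings. Without the livers of low mouse depth the amplitude difference was -0.811, against -0.829 with them, and with library sizes over human and mouse rows together it was -0.402. In that last setting the call that selected Lrp4 (edgeR adjusted p = 0.0722) and the call of its rhythm in Mu (0.101) were lost.

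Of the 14977 genes tested in liver, 192 were called for a different rhythm (1.28%), a share from which nothing is read for Nckap5 and Lrp4, since they were selected on this contrast. Next to them in the order of p were Ppard, a fatty acid receptor, with amplitudes of 1.66 in Mu and 0.234 in Hu, and Fam102a, with 0.933 and 0.187. The fitted liver amplitude of each of the 18 clock genes was also smaller in Hu, for example 3.65 and 2.09 for the repressor Nr1d1 and 3.63 and 1.44 for the activator Npas2. The genes most like Nckap5 over the 27 livers were Asap2 (r = 0.80), St5 (0.76) and 1700010I14Rik (0.73), with r within the 15 Hu livers of 0.20, 0.32 and -0.68. Those most like Lrp4 were the cell cycle kinase Wee1 (0.89), Usp2 (0.89) and Stk35 (0.87), with r within Hu livers of 0.60, 0.74 and 0.56. Over the 27 livers of both arms together, Nckap5 and Lrp4 ran against each other, with r = -0.79. For this pair r within each arm was not computed.

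None of the 4 genes was called for a different rhythm in a tissue that had not chosen it. Over the 11 such cases (edgeR quasi-likelihood test), an unadjusted p under 0.05 was reached by Gpc4 in liver. Its p was 0.0134, with an edgeR adjusted p of 0.146 over all genes. The backgrounds are 1.28% of genes called in liver and 0.0704% in muscle. In ARC and SCN 0 genes were called (0%), with 269 and 210 at an unadjusted p under 0.05. A rhythm within an arm was called in 0 of the 11 cases for Mu and 0 for Hu, with 3 and 1 at an unadjusted p under 0.05. The backgrounds for a rhythm in Mu are 17.3% of genes in liver, 5.31% in muscle, 1.41% in ARC and 0.207% in SCN, and for a rhythm in Hu 0.167%, 7.78%, 0.0995% and 0.00666%. A miss does not show that the rhythms are alike.

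In liver, Gpc4 read 47.4 to 74.0 CPM in Mu with its highest time points at ZT 18 and 22, and its amplitude was 0.201 ± 0.081 in Mu and 0.135 ± 0.050 in Hu. Its rhythm in Mu had an adjusted p of 0.0638 with edgeR and of 0.0197 with DESeq2. The call for a different rhythm was made when Mu ZT 6 replicate 1 was left out (edgeR adjusted p = 0.0356), and the amplitude difference changed sign under other scalings. Igf2bp2 in liver had amplitudes of 0.393 ± 0.226 in Mu and 0.665 ± 0.213 in Hu, with fitted peaks at ZT 2.41 ± 1.66 and ZT 22.7 ± 1.42. The phase difference was -3.68 ± 2.18 h, and the difference in rhythm was not called (edgeR adjusted p = 0.388). In muscle, Nckap5 had amplitudes of 0.584 ± 0.147 in Mu and 0.410 ± 0.232 in Hu, with peaks at ZT 4.75 and ZT 3.49. Neither rhythm was called (edgeR adjusted p = 0.182 and 0.272), nor was a difference between them (0.836). Lrp4 in muscle had amplitudes of 0.139 ± 0.152 and 0.182 ± 0.148, below or near their errors.

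In ARC, amplitudes were at most 0.200 for Gpc4, Nckap5 and Lrp4 in either arm. Igf2bp2 in ARC was low, with 5 to 22 reads per library, and its amplitude was 0.078 ± 0.156 in Mu and 0.399 ± 0.225 in Hu. In SCN, the highest amplitude was that of Lrp4 in Mu, 0.273 ± 0.131, whose rhythm had an unadjusted p of 0.0359 and an edgeR adjusted p of 0.383. The Mu SCN library with the highest Lrp4 value, ZT 2 replicate 2 at 45.6 CPM, stood apart from its replicate at 29.5 CPM. Igf2bp2 in SCN had 2 to 16 reads per library, or 0.0666 to 0.583 CPM, and was not tested in the fit of SCN alone. The edgeR adjusted p for a different rhythm was 0.99996 for each of the 4 genes in ARC and 0.99999 for each of the 3 tested in SCN.

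Time-averaged levels between the arms were called in 4 of the 11 cases, 2 in liver and 2 in muscle, where 79.5% and 26.9% of all genes were called, against 0.00663% in ARC and 0% in SCN. In bulk tissue, fewer cells of a type and less RNA per cell cannot be told apart. The mouse rows of Hu livers held more Igf2bp2. Mu livers ranged from 0.878 over a median of 1.58 to 2.49 CPM, and Hu livers from 1.78 over 3.58 to 9.58 CPM. The groups overlapped, with 13 of 15 Hu livers above every Mu liver. Over all genes, every Hu liver lay above every Mu liver for 7.52% and below for 12.5%. The log2 difference was 1.43 ± 0.20, a 2.70-fold rise (edgeR adjusted p = 9.59e-07). The 2 highest Hu livers were ZT 22 replicate 2 and ZT 18 replicate 2.

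Gpc4 was lower in the mouse rows of Hu livers on the TMM scale. Mu livers ranged from 47.4 over a median of 64.1 to 74.0 CPM, and Hu livers from 35.6 over 43.5 to 53.9 CPM. All 15 Hu livers lay below the Mu median and 12 below every Mu liver. The log2 difference was -0.51 ± 0.059, a level 1.43-fold lower (edgeR adjusted p = 4.38e-08). In liver 79.5% of genes were called for a level difference, 42.5% higher and 37% lower, so that a call there sets neither gene apart.

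These liver levels depend on the scaling. Against the TMM values, the median gene shifted by 0.67 on the log2 scale with mouse totals without TMM and by -0.76 with library sizes over human and mouse rows. Of the called genes, 53.5% were higher in Hu with TMM, 84.9% without it and 21.7% with sizes over all rows. Igf2bp2 was higher under each, at 1.43, 2.13 and 0.68. Gpc4 was lower with TMM and with sizes over all rows, at -0.51 and -1.29, and turned to 0.18 without TMM (edgeR adjusted p = 0.108). Relative to the median gene, Igf2bp2 was at 1.36, 1.38 and 1.37 and Gpc4 at -0.58, -0.56 and -0.59 under the 3 scalings. The positions of the genes among all genes were thus nearly equal under each, at percentiles 84.0, 83.6 and 86.6 for Igf2bp2 and 23.8, 24.8 and 22.2 for Gpc4. A scaling moves all genes of a library together, so this near equality was fixed in advance and lends the levels no support. Nckap5 in liver, described without a test, was at -0.48 with TMM and 0.22 without it, and Lrp4 at 0.050 and 0.71.

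**Figure D3:**
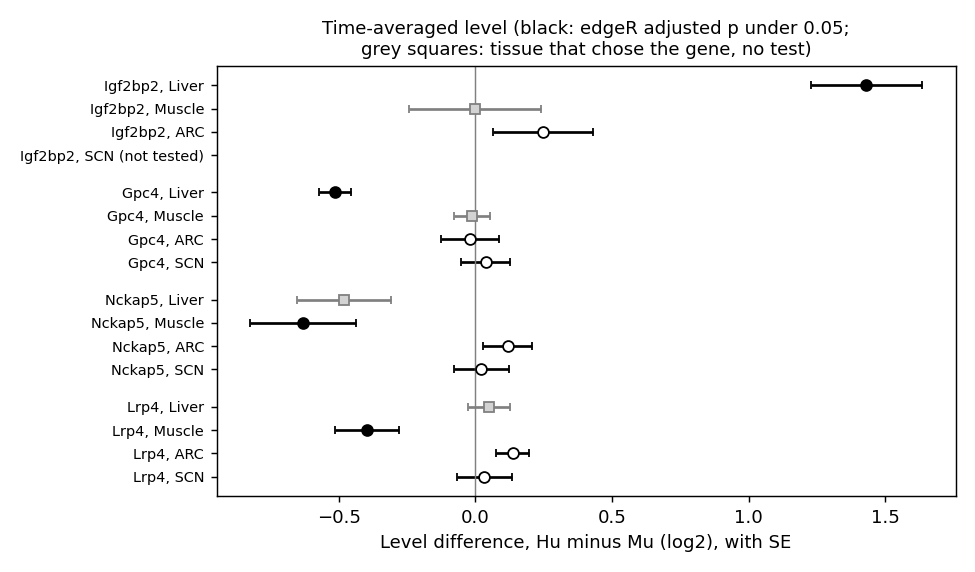
Log2 difference of the time-averaged level, Hu minus Mu, with bars of 1 standard error, for each gene in each tissue; filled black points passed the edgeR test, open points did not, and grey squares mark the tissue that chose the gene. Igf2bp2 in liver lies at 1.43, Gpc4 in liver at -0.51 (TMM scale, 0.18 without TMM), and Nckap5 and Lrp4 in muscle at -0.63 and -0.40. The values drawn in ARC and SCN lie between -0.02 and 0.25, with none drawn for Igf2bp2 in SCN.

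Cell type markers also differed between the arms in liver. On the TMM scale, where 42.5% of all genes were called higher and 37% lower, all 5 hepatocyte markers were lower in the mouse rows of Hu livers. Stellate cell markers were higher for 5 of 5, with sums of 307.4 to 415.0 CPM in Mu and 411.4 to 3220 CPM in Hu. Bile duct markers were higher for 5 of 5, with sums of 73.5 to 162.2 CPM in Mu and 235.5 to 866.9 CPM in Hu, endothelial markers for 5 of 5 and Kupffer cell markers for 3 of 5. With sizes over all rows, 3 of 5 stellate, 5 of 5 bile duct, 1 of 5 endothelial and 0 of 5 Kupffer markers were higher. Over all 14732 genes tested in that setting, 2494 were called higher. No marker of these lists was at 0 in every library of an arm. Their part in the levels and rhythms of the 4 genes was not tested.

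**Figure D4:**
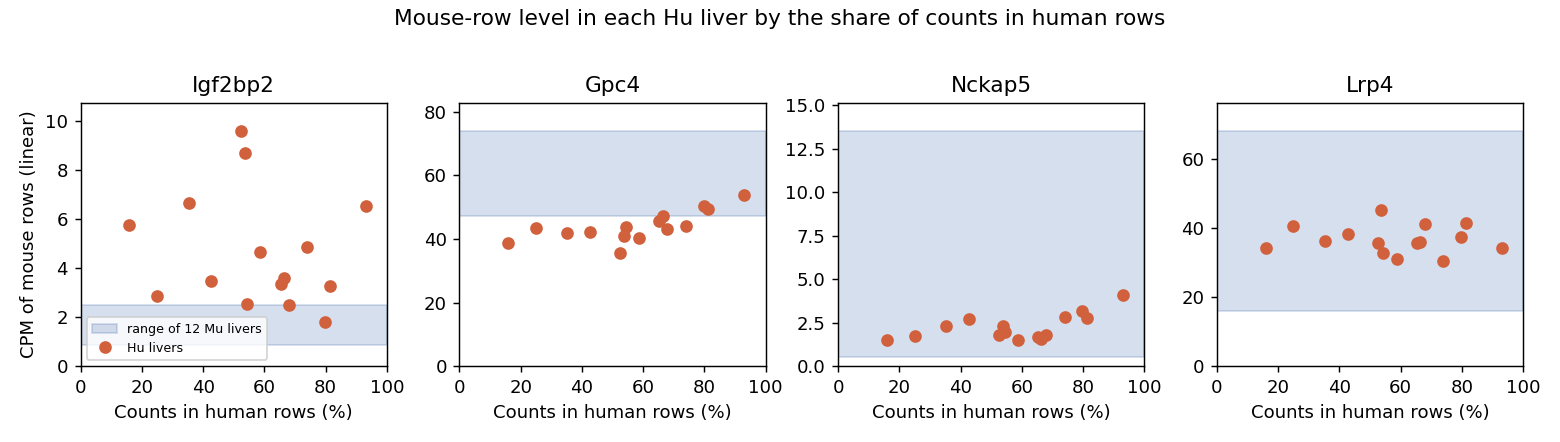
CPM of mouse rows in each of the 15 Hu livers against the percentage of counts in human rows; the band is the range of the 12 Mu livers. Gpc4 is highest in the Hu livers with most human counts, from 35.6 to 53.9 CPM over the range, and Nckap5 and Lrp4 stay within the Mu band throughout.

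Within Hu livers the share of human counts was set against the log2 CPM of the 4 genes, with permutation tests of 100000 draws adjusted over the 4. Gpc4 was higher where the share was higher (n = 15, Pearson r = 0.71, permutation p = 0.00323, adjusted p = 0.0129; Spearman rho = 0.78, permutation p = 0.00088, adjusted p = 0.00352). Without the 2 livers farthest from the median share, r was 0.54. Other mouse genes were not examined for this relation, so it is not shown to be particular to Gpc4. For Igf2bp2 r was -0.20 (permutation p = 0.483, adjusted p = 0.644; rho = -0.30, p = 0.285, adjusted p = 0.380; r = -0.31 without the 2 livers). For Nckap5 and Lrp4, which liver chose, r is a description: 0.57 for Nckap5, or 0.31 without the 2 livers, on which it rests, and -0.077 for Lrp4, or -0.13 without them. The share of human counts and the mouse depth moved together (r = -0.89), and the share differed between time points, so these cannot be told apart. Human reads counted in mouse rows, which could also rise with the share, were not tested for.

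In muscle, the genes chosen in liver had lower levels in Hu. Nckap5 ranged from 0.241 over a median of 0.452 to 0.661 CPM in Mu and from 0.0947 over 0.304 to 0.522 CPM in Hu, with 9 to 46 reads per library. The groups overlapped, and 13 of 15 Hu muscles lay below the Mu median. Complete separation was rare in muscle, with every Hu library above every Mu library for 0.0563% of genes and below for 0.0493%. The log2 difference was -0.63 ± 0.19, a level 1.55-fold lower (edgeR adjusted p = 0.0194). Lrp4 ranged from 13.2 over 18.5 to 27.1 CPM in Mu and from 8.58 over 15.4 to 19.8 CPM in Hu, again with 13 of 15 below the Mu median. Its log2 difference was -0.40 ± 0.12, a level 1.32-fold lower (edgeR adjusted p = 0.0146). Both kept their calls when each of the 27 libraries was left out in turn, with adjusted p of at most 0.0372 and 0.0355. In muscle 26.9% of genes were called for a level difference, 13.5% higher and 13.3% lower.

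Some markers of other cell types also differed between the arms in muscle. Fat cell markers summed to 132.9 to 2065 CPM (median 274.7) in Mu muscle and to 186.8 to 2263 CPM (median 662.4) in Hu, with 3 of 5 higher. Slow fibre markers summed to 47.7 to 1453 CPM (median 204.3) and to 11.7 to 551.8 CPM (median 130.4), with 1 of 5 lower. With both sums as covariates, a fit chosen after seeing the data, Nckap5 was at -0.51 (edgeR adjusted p = 0.130) and Lrp4 at -0.19 (adjusted p = 0.278), and neither was called. Connective tissue markers were lower for 2 of 5, and markers of denervated muscle, where agrin and LRP4 signalling is lost, were higher for 1 of 5, with median sums of 43.9 CPM in Mu and 64.8 CPM in Hu. Satellite cell markers were lower for 3 of 5, with median sums of 30.4 CPM in Mu and 36.7 CPM in Hu. Kupffer cell markers were higher for 3 of 3 tested. All these counts are read against 13.5% of muscle genes called higher and 13.3% lower. The part of these last lists was not tested.

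The lower level in muscle was not shared by the brain regions. In ARC 0.00663% of genes were called for a level difference and in SCN 0%. In ARC the log2 differences were 0.12 (95% interval -0.068 to 0.31) for Nckap5 and 0.14 (0.010 to 0.26) for Lrp4, and the latter had an unadjusted p of 0.0357 and an edgeR adjusted p of 0.999. In SCN they were 0.022 (-0.19 to 0.23) and 0.033 (-0.18 to 0.25). In 1 fit over muscle, ARC and SCN, the muscle difference was below that of ARC by 0.78 ± 0.20 for Nckap5 (-0.775, edgeR adjusted p = 0.00542) and by 0.55 ± 0.15 for Lrp4 (-0.548, adjusted p = 0.00889). Against SCN the differences were -0.679 ± 0.198 (adjusted p = 0.0155) and -0.448 ± 0.148 (adjusted p = 0.0338). Of 16040 genes, 13% were called between muscle and ARC and 13.8% between muscle and SCN, and 0% between ARC and SCN. The fit takes the libraries of different tissues as independent, although they may come from the same mice. The call of Lrp4 against SCN was lost without any 1 of 7 libraries, with adjusted p of up to 0.0797, and with the replicate number as a block (adjusted p = 0.0625). These libraries were Hu muscle ZT 14 replicate 2 and ZT 18 replicate 1, Mu muscle ZT 18 replicate 1 and ZT 22 replicate 1, Hu SCN ZT 6 replicate 1 and ZT 18 replicate 1, and Mu SCN ZT 10 replicate 2.

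For Igf2bp2 and Gpc4 no level difference was called outside the liver. In ARC the log2 difference of Igf2bp2 was 0.25 (95% interval -0.13 to 0.63) and that of Gpc4 -0.021 (-0.24 to 0.20), and in SCN that of Gpc4 was 0.037 (-0.15 to 0.22). Igf2bp2 in SCN entered only the fit over muscle, ARC and SCN, where its log2 difference was -0.32. Between ARC and SCN no gene of the 4 was called for a different level difference (edgeR adjusted p = 1).

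Across tissues each gene had its own order of levels, and liver stands in another table than the other tissues. TMM was run in each tissue alone, so the values of different tissues share no common scaling. Igf2bp2 in Mu was highest in muscle (2.54 ± 1.72 CPM, SD, n = 12), then liver (1.64 ± 0.53), ARC (0.340 ± 0.089) and SCN (0.263 ± 0.136). In Hu the order of the first pair was turned, with liver at 4.67 ± 2.33 (SD, n = 15) and muscle at 2.21 ± 1.31. Ranges of muscle and liver overlapped, as did those of ARC and SCN, and ARC lay below muscle and liver in both arms. In Mu the highest SCN library (0.583 CPM) just reached into the range of muscle, whose lowest library read 0.574 CPM. Gpc4 in Mu was highest in liver (63.5 ± 8.81), without overlap with muscle (21.2 ± 5.45), followed by ARC (13.7 ± 2.77) and SCN (8.62 ± 1.31), whose ranges overlapped with their neighbours. Nckap5 was highest in the brain regions, at 5.82 ± 1.06 in Mu ARC and 5.72 ± 0.57 in Mu SCN, with liver at 4.98 ± 4.56 spanning both and muscle at 0.468 ± 0.161. In Hu its liver value was 2.25 ± 0.75, apart from SCN (5.78 ± 1.23) and from muscle (0.303 ± 0.122) on the TMM scale. Without TMM, Hu liver ZT 18 replicate 3 read 7.40 CPM of Nckap5, inside the Hu SCN range of 4.27 to 8.26 CPM. Lrp4 in Mu was at 39.2 ± 18.03 in liver, 28.0 ± 6.55 in SCN, 23.4 ± 2.69 in ARC and 19.3 ± 4.15 in muscle, and each range overlapped with the next. In Hu the Lrp4 ranges of ARC (25.6 ± 1.46) and muscle (14.8 ± 3.08) did not overlap.

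Partners of each gene were examined as lists chosen with earlier results of these data known. In liver, read against the background of 42.5% higher and 37% lower on the TMM scale, the IGF2BP and IGF signalling list had 6 of 10 genes tested higher and 1 lower, with a median log2 difference of 0.57 against 0.066 over all genes. Igf1r, the receptor of Igf1, was higher by 2.08, Hmga2, which activates Igf2bp2 transcription, by 1.70, and the growth factor Igf1 fell by 1.52. Hmga1, a chromatin protein, was the 1 gene of the partner lists called for a different rhythm in liver (edgeR adjusted p = 0.0425), with amplitudes of 0.564 in Mu and 0.159 in Hu. Of the glypican and heparan sulfate list 7 of 15 were higher and 5 lower, with a median of 0.20. Gpc1, another glypican, was higher by 1.97, while Notum, also of this list, fell by 2.63 and the sulfotransferase Hs6st1 fell by 0.95. Of the LRP4 list 3 of 6 were higher and 1 lower, with the ligand Agrn at 0.91, the receptor subunit Chrnb1 at 2.27 and Chrne at -2.33. Of the NCK list 8 of 12 were higher and 0 lower, among them Pak1 at 2.20, the adaptor Nck2 at 1.64 and Wipf1 at 1.53. With sizes over all rows these counts were 4 higher and 3 lower for the IGF list, 3 and 8 for the glypican list, 1 and 3 for the LRP4 list and 5 and 3 for the NCK list. Over all 14732 genes tested in that setting, 2494 were called higher and 8978 lower. With mouse totals without TMM the list counts were 9 and 1, 11 and 2, 5 and 1, and 12 and 0 in the same order, where 10877 of all 14977 genes were called higher and 1938 lower. Under each scaling, each gene named for its level kept its sign, though Agrn was only at 0.096 with sizes over all rows. These genes were named for the smallest p for level on the TMM scale.

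In muscle the lists are read against 13.5% of all genes higher and 13.3% lower. The IGF list had 3 of 10 higher and 1 lower, with Igf1 at 0.66 ± 0.15 (edgeR adjusted p = 0.00225), Igf1r at 0.40 and the growth factor Igf2 at 0.37. The glypican list had 4 of 14 higher and 1 lower, with the sulfotransferase Ndst1 at -0.33 ± 0.055 (adjusted p = 0.000243), the glypican Gpc6 at 0.26 and the polymerase Ext2 at 0.15. The LRP4 list had 0 of 13 higher and 2 lower, the acetylcholine receptor subunit Chrnd at -0.56 ± 0.17 (adjusted p = 0.0184) and the Wnt co-receptor Lrp6 at -0.19 ± 0.053 (adjusted p = 0.0131). The NCK list had 2 of 12 higher and 4 lower, with Nckap5l, the closest relative of Nckap5 by name, at -0.58 ± 0.096 (adjusted p = 0.000222), Nck1 at -0.29 and the blood cell gene Nckap1l at 0.86. In ARC and SCN no gene of these 4 lists was called for a level or a different rhythm, with 640 and 325 of all genes at an unadjusted p under 0.05 for level.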

How the data were processed

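RNA sequencing counts were analysed for 98 libraries of liver, muscle, ARC and SCN. Whole-number gene counts without normalization were deposited by the authors in 2 tables, 1 for liver with mouse and human rows and 1 for muscle, ARC and SCN. Per the submitters' processing notes, STAR and the builds GRCm38, mm10, GRCh38, hg38 and hg19 were used, with no role given. The counting program is not given in the sources used here. Per the labels' protocols, RNA came from RNeasy columns and libraries from a directional kit. Ensembl identifiers gave a symbol for 19615 of 19689 mouse rows in liver, and for 20329 of 20415 elsewhere. Human rows were used for library shares only.

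Each tissue was fitted with edgeR 4.0.16 in R 4.3.3 (quasi-likelihood F tests on mouse counts, TMM scaling, filterByExpr by arm), with the arm and a cosine and sine of 24 h for each arm. Benjamini-Hochberg adjustment ran over all genes tested (14977 in liver, 14197 in muscle, 15079 in ARC, 15006 in SCN), and genes were called at an adjusted p under 0.05. Log2 CPM used a prior count of 2. Amplitude and phase errors are jackknife standard errors over libraries. Level differences between muscle, ARC and SCN came from 1 fit over their libraries. DESeq2 1.42.0 was an alternative test. Scripts were tested on simulated data. Other alternatives were DESeq2 size factors, no filter, time as a factor, the replicate number as a block, library sizes over all rows, and each library left out. In the fit over muscle, ARC and SCN, only muscle and SCN libraries were left out. Chosen after seeing the data were mouse totals without TMM, fat and slow fibre covariates, leaving out the 4 Hu livers of low mouse depth, and fitting each arm alone. For 2 Hu columns of ZT 22, in ARC and in SCN, the name gave the group but no single labelled sample. No 2 replicates agreed within sampling noise.

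The 4 genes and all lists were chosen with earlier results of these data known. Other genes named are, by rule, genes of partner lists called for a different rhythm, up to 3 per list and tissue with the smallest p for level, the 3 genes most correlated with each gene in the tissue that chose it, and the genes next in rank. Nr1d1, Npas2, Nr1d2 and Ppard were named after their values were seen.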

Additional observations from a re-analysis of the deposited data

Results flagged for a closer look

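The level difference between the arms itself differed between tissues for Nckap5 and Lrp4, in the fit over muscle, ARC and SCN (edgeR quasi-likelihood test). For Nckap5, muscle minus ARC was -0.775 on the log2 scale (adjusted p = 0.00542) and muscle minus SCN -0.679 (adjusted p = 0.0155), with 13 of 15 Hu muscles below the Mu median. For Lrp4, muscle minus ARC was -0.548 (adjusted p = 0.00889) and muscle minus SCN -0.448 (adjusted p = 0.0338), also with 13 of 15. Nckap5 rests on 9 to 46 reads per muscle library. Over the 49 muscle and SCN libraries left out in turn, the adjusted p reached 0.0104 and 0.0357 for Nckap5 against ARC and SCN, 0.0198 for Lrp4 against ARC and 0.0797 for Lrp4 against SCN. In muscle alone neither level was called with fat cell and slow fibre markers as covariates, at -0.51 for Nckap5 (adjusted p = 0.130) and -0.19 for Lrp4 (adjusted p = 0.278). In the joint fit such covariates were not tested. No library stood apart in the 8 sets of 10 Hu libraries, 1 set per gene in ARC and SCN, examined for it. Muscle libraries and Mu libraries were not among these sets.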

How the results depend on the processing

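Counts of genes called are given first as reported and then under each alternative that moved them by over 1.5 times; the cause was not tested. For a different rhythm, the 192 genes of liver became 111 without TMM, 107 without the filter, 1152 with DESeq2, 11 with time as a factor, 11 with library sizes over all rows and 46 without the 4 livers of low mouse depth. The 10 of muscle became 4 without TMM, 158 with DESeq2, 1 with time as a factor and 1 with fat and slow fibre covariates. For level, the 3817 genes of muscle became 1946 with those covariates, the 1 of ARC became 14 and the 0 of SCN became 1 with DESeq2. For a rhythm in Mu, the 2598 genes of liver became 640 with time as a factor, 85 with sizes over all rows and 3928 with the arm fitted alone. With DESeq2, time as a factor and the arm alone in turn, the 754 of muscle became 1494, 165 and 1749, the 213 of ARC became 514, 29 and 48, and the 31 of SCN became 290, 134 and 14. For a rhythm in Hu, the same 3 settings moved the 25 of liver to 516, 8 and 8, the 1104 of muscle to 1708, 440 and 135, the 15 of ARC to 92, 2 and 0, and the 1 of SCN to 22, 0 and 0. The liver count was 8605 with sizes over all rows and 7 without the livers of low depth, and the ARC count was 40 without the filter.

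With each library left out in turn, counts for a different rhythm ranged from 38 (without Mu ZT 6 replicate 2) to 1009 (without Mu ZT 6 replicate 1) in liver, 0 to 19 in muscle and 0 to 0 in ARC and SCN. The muscle count was 0 without Hu ZT 2 replicate 1. Level counts ranged from 11692 to 11922 in liver, 3071 to 4411 in muscle, 1 to 2 in ARC and 0 to 1 in SCN. Counts for a rhythm in Mu ranged from 1460 to 3559 in liver, 388 to 1110 in muscle, 86 to 282 in ARC and 10 to 56 in SCN, and in Hu from 8 to 827 (without Hu ZT 2 replicate 2), 602 to 1138, 5 to 18 and 0 to 3. In the fit between tissues, only muscle and SCN libraries were left out in turn. Its counts ranged from 1785 to 2809 for muscle and ARC, 1857 to 2889 for muscle and SCN and 0 to 1 for ARC and SCN. Its dependence on single ARC libraries was not examined.

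The replicate numbers were not taken to pair the samples, a question that the correlations below do not settle. Deviations of same-numbered samples correlated at a mean of 0.115 in liver, 0.0250 in muscle, 0.130 in ARC and 0.120 in SCN, and over 0.1 in 7 of 12, 2 of 12, 6 of 8 and 4 of 8 pairs. Where both arms had 2 samples at a time point, its 2 pairs give the same correlation by construction. All ARC and SCN pairs are of this kind, so that each of their time points is counted 2 times. With the replicate number as a block, rhythms called in Hu numbered 5 in ARC and 0 in SCN, and in Mu 20 in SCN. Under the block, log2 differences that turned direction were the level of Igf2bp2 in muscle (0.0157), of Gpc4 and Nckap5 in SCN (-0.0163 and -0.0477), of Gpc4 in muscle against ARC (0.0240), and the amplitude of Gpc4 and Nckap5 in SCN (-0.0324 and -0.0435).

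Other reversals of the 4 genes were these. Without TMM, the liver level was 0.179 for Gpc4 and 0.223 for Nckap5, the muscle level was 0.0441 for Igf2bp2 and 0.0163 for Gpc4, and the amplitude difference of Gpc4 in liver was 0.0415. With sizes over all rows, that difference was 0.326, the liver level of Lrp4 was -0.683 and its phase difference 11.5 h, which was 0.906 h without the livers of low depth. The level of Gpc4 was 0.0034 in muscle with the covariates and 0.0145 in ARC with time as a factor. The level difference of Gpc4 in muscle against ARC ranged from -0.0423 to 0.0175 with each muscle or SCN library left out, while ARC libraries were all kept. With each library of a tissue left out, values that crossed 0 ranged for level from -0.0833 to 0.137 for Igf2bp2 and -0.0429 to 0.00776 for Gpc4 in muscle, -0.0662 to 0.0437 for Gpc4 in ARC, and -0.0171 to 0.0812 for Gpc4, -0.0495 to 0.0764 for Nckap5 and -0.0354 to 0.103 for Lrp4 in SCN. Amplitude differences ranged from -0.0695 to 0.166 for Lrp4 in muscle, -0.214 to 9.00e-05 for Gpc4, -0.140 to 0.0292 for Nckap5 and -0.0631 to 0.0368 for Lrp4 in ARC, and -0.0247 to 0.108 for Gpc4 and -0.0524 to 0.165 for Nckap5 in SCN. The phase difference of Lrp4 in liver ranged from -2.27 to 0.465 h. Low counts limit Igf2bp2 in ARC and SCN, with 2 to 22 reads per library, and Nckap5 in muscle, with 9 to 46.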
